A study of Mus musculus with 6 samples.

Results

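The tripartite motif (TRIM) genes encode one of the largest families of RING ubiquitin ligases. Here the family was taken as every protein-coding row of the deposited expression table whose symbol is Trim followed by a number and at most 1 letter, which gave 68 genes of 54532 rows. The rule uses the symbol and the gene type alone. The libraries came from MC38, a mouse colon cancer cell line inoculated under the skin of wild-type C57BL/6 mice. The Npm1_KO group held 3 libraries of MC38 tumours with Npm1 knocked out by CRISPR/Cas9, and the WT group held 3 libraries of wild-type MC38 tumours. In both groups CD45-negative cells were prepared with CD45 microbeads, CD45 being the surface protein of leukocytes, and poly-A RNA was sequenced. The labels do not say whether the knockout cells were 1 clone or a pool, nor whether the replicates came from separate animals. The p-values therefore measure the spread between these libraries, which may be technical.

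A TRIM protein carries, in order, a RING finger that recruits a ubiquitin-charged E2 enzyme, 1 or more B-box zinc fingers and a coiled coil through which the proteins pair. The end of the protein differs between members and picks the substrate: most mouse members carry a PRY-SPRY domain, and others carry NHL repeats, a PHD finger with a bromodomain, or a COS box that binds microtubules. Many PRY-SPRY members take part in innate immunity, where they attach ubiquitin to viral RNA sensors and their adaptors, and several are induced by interferon. Other members act in transcriptional silencing, development and protein quality control.

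The 6 libraries held 16917778 to 18662688 fragments each, as recovered from the deposited values, and depth ranges overlapped between the groups. Npm1, which encodes the nucleolar chaperone nucleophosmin, was at 191, 159 and 128 FPKM (fragments scaled to gene length and library size) in the libraries labelled Npm1_KO and at 234, 169 and 195 FPKM in the WT libraries. The Npm1 transcript thus overlapped between groups (log2 difference -0.33, limma adjusted p = 0.268), and CRISPR/Cas9 damage can disable a protein without lowering its transcript, so this level is a weak check of the labels. When a trend with transcript length and GC content was removed from each library, the log2 difference of Npm1 was -0.74 (limma adjusted p = 0.0409). The leukocyte marker Ptprc (CD45) stayed at or under 0.0134 FPKM in every library, and the 8 pan-leukocyte markers summed to 1.05 to 1.60 FPKM in Npm1_KO and 1.31 to 1.94 FPKM in WT. The 8 macrophage markers summed to 4.60 to 7.30 FPKM in Npm1_KO and 4.19 to 12.4 FPKM in WT, and the 8 T and NK cell markers to 0.344 to 0.644 FPKM and 0.257 to 1.40 FPKM, with Cd3e and Cd4 at 0. All 7 colon epithelial markers were under 1 FPKM in every library, among them Epcam, Krt20, Cdx2 and Vil1, although the labels call the cells colon cancer cells. The 8 fibroblast markers summed to 1520 to 1699 FPKM in Npm1_KO and 1134 to 1698 FPKM in WT, most of it Col3a1, which was not called. Of the 8, 3 were called higher in Npm1_KO, namely Dpt, Pi16 and Dcn (log2 differences 2.19, 1.43 and 1.28). Col1a1 was the 1 called lower (-1.88). When the length and GC trend was removed, 2 of the 8 were called higher and none lower. The 6 endothelial markers summed to 0.901 to 1.73 FPKM in Npm1_KO and 1.91 to 4.79 FPKM in WT, sums that do not overlap. The 6 keratinocyte markers summed to 330 to 437 FPKM in Npm1_KO and 265 to 379 FPKM in WT, nearly all of it Krt14, with Dsg3 at 0 and none called. The 7 skeletal muscle markers summed to 1.04 to 1.61 FPKM in Npm1_KO and 0.934 to 1.19 FPKM in WT, with Myod1 at 0. Whether these marker differences play a part in the TRIM values was not tested. In bulk RNA, fewer cells of a type and less RNA per cell cannot be told apart.

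TRIM transcripts spanned more than 2 orders of magnitude. Of the 68 members, 33 averaged at least 1 FPKM across libraries and were tested, 19 were detected below that mean, and 16 had no fragment in any library. Only 11 members averaged at least 10 FPKM and only 4 at least 50 FPKM: Trim47, Trim28, Trim8 and Trim35, in that order. From 47 to 48 members had a fragment in each Npm1_KO library, and 48 to 50 in each WT library. Summed over the family, the level was 493, 488 and 502 FPKM in Npm1_KO, against 609, 596 and 676 FPKM in WT. The summed levels did not overlap, but they did without the 4 most abundant members: the sums were then 161, 169 and 183 FPKM in Npm1_KO and 210, 180 and 186 FPKM in WT.

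**Figure D1:**
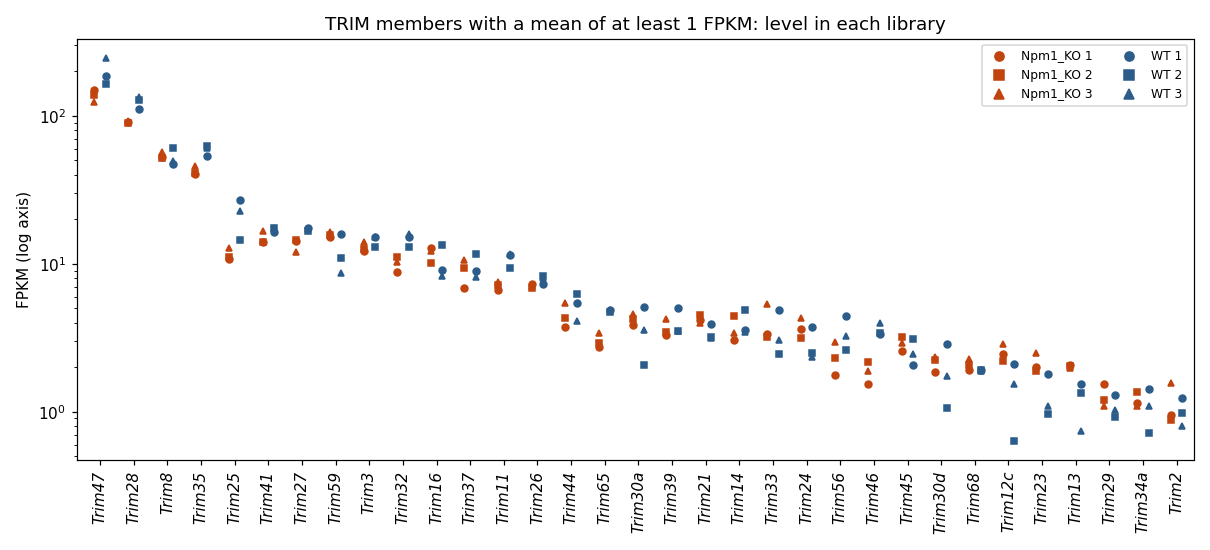
Level of each of the 33 tested TRIM members in each library, in FPKM on a log axis, ordered by mean level; orange symbols are the Npm1_KO libraries and blue symbols the WT libraries. Trim47 and Trim28 lie highest, with the Npm1_KO symbols below the WT ones, and some low members at the right scatter widely in WT, as Trim12c does from 0.636 to 2.10 FPKM.

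In the comparison of Npm1_KO with WT, 4 members fell and none rose among the 33 tested (limma on log2(FPKM + 1), Benjamini-Hochberg adjusted p under 0.05 over all 11287 tested genes). The 4 were Trim46, Trim25, Trim65 and Trim11, which are 12.1% of the tested members. Over all tested genes 8.30% were called lower and 5.91% higher, 14.2% in all, so the members' total share of calls was close to the background. The median log2 difference was -0.10 over the tested members and 0.02 over all tested genes, with 17 members negative and 16 positive. No overlap between the groups was seen for 14 members, or 42.4%, against 35.6% of all tested genes. Of these, 10 were lower in Npm1_KO (Trim47, Trim28, Trim35, Trim25, Trim27, Trim32, Trim11, Trim26, Trim65 and Trim46), a share of 30.3% against 19.6% of all tested genes. The other 4 were higher (Trim21, Trim12c, Trim23 and Trim13), where 16.0% of all tested genes were. For every one of these 14 the exact two-sided permutation test over libraries gave p = 0.1, the smallest that 3 against 3 allows.

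**Figure D2:**
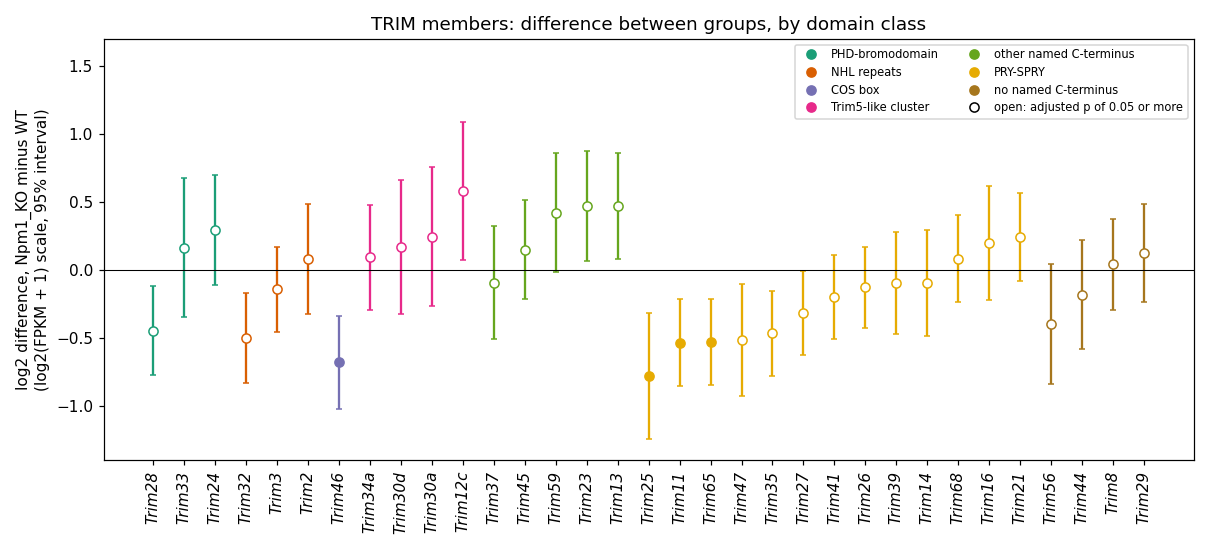
Log2 difference, Npm1_KO minus WT, of each tested TRIM member with its 95% interval from limma on the log2(FPKM + 1) scale, coloured by the class of the protein's end; filled points passed an adjusted p of 0.05. The 4 filled points are Trim46 at -0.68, Trim25 at -0.78, Trim11 at -0.54 and Trim65 at -0.53, and no filled point lies above 0.

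The direction of a member went with the base composition of its transcript. Across the 33 tested members, Spearman's rho between the log2 difference and the GC content of the longest transcript was -0.72, and across the 11269 tested genes with both properties it was -0.34. These are descriptions across genes of the same 6 libraries, and genes are not independent replicates. Of the 17 members at or above the median GC content (50.6% to 64.1% GC), 13 had a negative difference and their median was -0.20. Of the 16 members below it (37.4% to 50.3% GC), 4 had a negative difference and their median was 0.18. The GC-rich members had median deviations of -0.16, -0.10 and -0.10 in the Npm1_KO libraries and of 0.11, 0.13 and 0.15 in the WT libraries. The GC-poor members had 0.02, 0.08 and 0.20 in Npm1_KO and 0.16, -0.23 and -0.19 in WT, so there WT replicate 1 lay with the Npm1_KO libraries. Transcript length showed little relation to the difference among members (rho -0.09), against -0.46 over all tested genes.

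**Figure D3:**
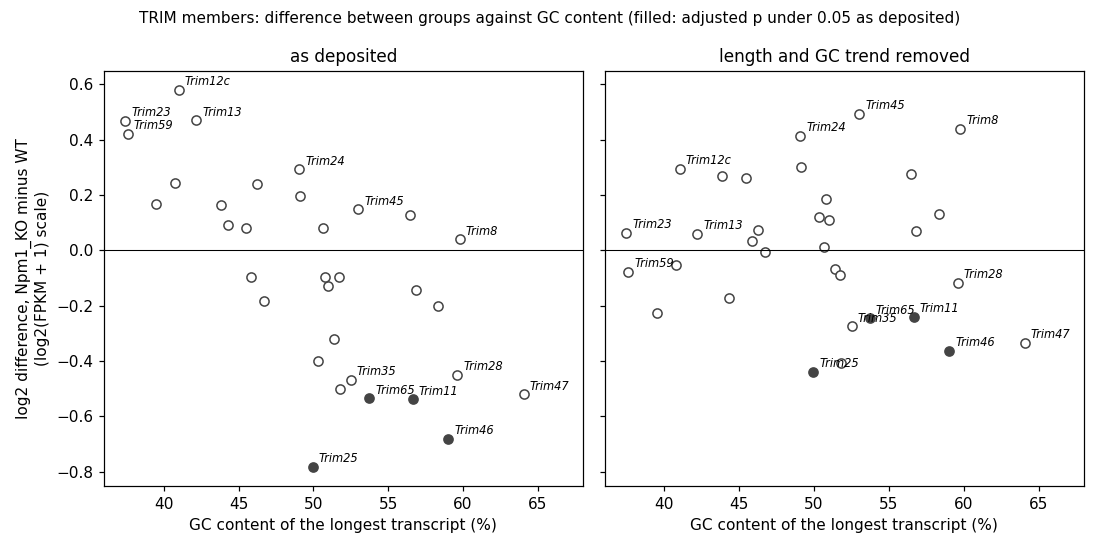
Log2 difference, Npm1_KO minus WT, against the GC content of the longest transcript in percent, for the 33 tested TRIM members; the left panel uses the deposited values and the right panel values with the length and GC trend of all genes taken out of each library. The downward slope at the left (rho -0.72) is nearly flat at the right (rho -0.14); filled points mark the 4 members called from the deposited values in both panels.

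When a smooth trend with length and GC content, fitted over all genes, was taken out of each library, none of the 33 members was called (limma, adjusted p under 0.05). Over all genes 3.02% were called in that fit, 1.30% higher and 1.72% lower in Npm1_KO. At an unadjusted p under 0.05 the fit left 9 members, against 12 from the deposited values, and the members' median log2 difference became 0.03. The 4 called members kept their sign: Trim46 was at -0.36 (adjusted p = 0.113), Trim25 at -0.44 (adjusted p = 0.203), Trim65 at -0.25 (adjusted p = 0.176) and Trim11 at -0.24 (adjusted p = 0.25). In that fit Spearman's rho with log2 transcript length was 0.32 across the members, against -0.09 from the deposited values. Over all tested genes it was -0.03, against -0.46. The corrected values of the members were thus not free of a relation to length. Where the length and GC trend came from was not tested.

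Among the PRY-SPRY members outside the chromosome 7 cluster, 3 of 13 tested fell (Trim25, Trim65 and Trim11), none rose, and the median log2 difference was -0.20. That is 23.1% called lower, against 8.30% of all tested genes. With the length and GC trend removed, none of the 13 was called and the median was -0.07. Trim25 ubiquitinates the RNA sensor RIG-I and is itself induced by interferon and by oestrogen. Trim25 (ENSMUSG00000000275, chromosome 11, 88999376 to 89020293, plus strand, GRCm38) was at 10.8, 11.2 and 12.9 FPKM in Npm1_KO, from 1140, 1132 and 1391 fragments, and at 26.8, 14.5 and 22.6 FPKM in WT, from 2931, 1436 and 2116 fragments. Every Npm1_KO library lay below every WT library, and WT replicate 2 came nearest to them. Trim25 averaged 11.6 ± 1.09 FPKM in Npm1_KO and 21.3 ± 6.28 FPKM in WT (SD, n = 3 each), and its log2 difference of -0.78 (SE 0.209, limma's 95% interval -1.25 to -0.32, adjusted p = 0.0374) was the largest fall in the family on the log2(FPKM + 1) scale. By the ratio of means, which adds no pseudocount, Trim25 was at 0.546 and Trim46 lower, at 0.520.

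Since Trim25 is an interferon target, the 100 bases before its RefSeq start (chr11:88999303-88999402, plus strand, GRCm38.p6) are shown, all in lower case because neither motif searched was present in the 250 bases before the start.
Trim25: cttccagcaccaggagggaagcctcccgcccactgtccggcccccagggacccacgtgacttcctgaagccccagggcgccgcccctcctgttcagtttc
The motifs were the core of an interferon-stimulated response element (GAAA, any 2 bases, then GAAA) and TTCNNNGAA, a STAT site, both searched on either strand. Their absence says only that these letters are not in this window.

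Trim65 ubiquitinates the RNA sensor MDA5. It lies on chromosome 11 (ENSMUSG00000054517, 116121846 to 116131128, minus strand) and was at 2.74, 2.90 and 3.40 FPKM in Npm1_KO, against 4.85, 4.70 and 4.84 FPKM in WT. The WT libraries were almost level and the Npm1_KO libraries all lay below them. The means were 3.01 ± 0.348 FPKM in Npm1_KO and 4.80 ± 0.0849 FPKM in WT (SD, n = 3 each), so the log2 difference was -0.53 (SE 0.142, limma's 95% interval -0.85 to -0.22, adjusted p = 0.0372). Trim65 overlaps Trim47 on the same strand by 225 exon bases, which are 3.82% of its exon bases, and 4.49% of its 50-base words also occur in Trim47. Because Trim47 was far more abundant, fragments from the shared stretch cannot be assigned to Trim65 with certainty.

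Trim11, which in human cells helps clear misfolded proteins from the nucleus, was at 6.65, 7.18 and 7.56 FPKM in Npm1_KO and at 11.4, 9.43 and 11.7 FPKM in WT (ENSMUSG00000020455, chromosome 11, 58978093 to 58991458, plus strand). The groups did not overlap. Its mean was 7.13 ± 0.454 FPKM in Npm1_KO and 10.8 ± 1.23 FPKM in WT (SD, n = 3 each), which is -0.54 on the log2 scale (SE 0.144, limma's 95% interval -0.86 to -0.22, adjusted p = 0.0375).

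Trim47, the most abundant member, was at 149, 138 and 124 FPKM in Npm1_KO and at 186, 165 and 246 FPKM in WT. Its groups did not overlap, but the WT libraries spread widely (137 ± 12.3 FPKM in Npm1_KO and 199 ± 42.0 FPKM in WT, SD, n = 3 each) and the log2 difference of -0.52 had a limma adjusted p of 0.0832. Trim47 also had the highest GC content of the tested members, 64.1%. Trim35, described in mouse as a haematopoietic lineage switch gene, was at 40.3, 40.9 and 45.5 FPKM in Npm1_KO and 53.7, 62.1 and 60.7 FPKM in WT. That is a log2 difference of -0.47 (SE 0.141) with a limma adjusted p of 0.0519, so it was not called. Trim27, a nuclear ligase first found fused to the Ret kinase in human tumours, was at 14.3, 14.5 and 11.9 FPKM in Npm1_KO and 17.5, 16.7 and 17.1 FPKM in WT (log2 difference -0.32, limma adjusted p = 0.14).

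The other PRY-SPRY members had log2 differences between -0.20 and 0.24, and none passed the test. Trim41 was at 14.0, 14.0 and 16.6 FPKM in Npm1_KO and 16.4, 17.6 and 17.6 FPKM in WT. Trim26, a regulator of interferon induction, was nearly flat, at 7.26, 6.91 and 7.13 FPKM in Npm1_KO and 7.35, 8.21 and 8.05 FPKM in WT, and its sign turned with the trend removed. Trim21, the cytosolic antibody receptor that targets antibody-coated viruses, was at 4.14, 4.52 and 3.99 FPKM in Npm1_KO and 3.91, 3.19 and 3.17 FPKM in WT (log2 difference 0.24, limma adjusted p = 0.273). Trim14, Trim16, Trim39 and Trim68 all overlapped between the groups. Trim14, which lacks a RING and works as an adaptor of antiviral signalling, shares 1356 exon bases (31.3%) with Nans on the other strand. The strand setting of the authors' counting is not given in the sources used here, so fragments of the overlapping genes cannot be told apart.

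The COS-box class, as listed here, had a single tested member of 7, Trim46, and it fell. Trim46 bundles microtubules at the start of the axon in neurons, and its class binds the cytoskeleton. Trim46 (ENSMUSG00000042766, chromosome 3, 89234177 to 89246309, minus strand) was at 1.53, 2.15 and 1.90 FPKM in Npm1_KO, from 106, 144 and 135 fragments, and at 3.36, 3.39 and 3.98 FPKM in WT, from 242, 222 and 245 fragments. No Npm1_KO library reached the level of any WT library. Trim46 averaged 1.86 ± 0.313 FPKM in Npm1_KO and 3.58 ± 0.346 FPKM in WT (SD, n = 3 each), and the difference on the log2 scale was -0.68 (SE 0.155, limma's 95% interval -1.03 to -0.34, adjusted p = 0.0246), the smallest adjusted p of the family. On the opposite strand, 239 of its exon bases (6.30%) are shared with Krtcap2, which was at 49.7 to 91.6 FPKM, so fragments of the shared bases cannot be told apart. Of the other listed COS-box members, Trim36 reached 1.17 FPKM in 1 library and 5 had no fragment.

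The called member with a motif match was Trim46. The stretch below lies before 1 of its RefSeq starts (chr3:89245366-89245449, minus strand, GRCm38.p6), inside the gene as annotated in the deposited table, and its capitals mark TTCNNNGAA.
Trim46: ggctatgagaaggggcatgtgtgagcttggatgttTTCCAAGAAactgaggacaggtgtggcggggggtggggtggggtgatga
Of 32851 RefSeq windows in the genome, 7.02% hold this motif in the 250 bases before the start, against 6 of the 67 windows of members. Those 6 belong to 5 members: Trim46, Trim45, Trim30c, Trim15 and Trim31. A match is a description of the letters, not evidence of binding.

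In the chromatin class, which pairs a PHD finger with a bromodomain, none of the 3 tested of 4 members was called, and the median log2 difference was 0.16. Trim28 is the corepressor that KRAB zinc-finger proteins bring to DNA to silence retroelements. It was at 90.4, 89.0 and 92.7 FPKM in Npm1_KO, a narrow range, and at 111, 128 and 134 FPKM in WT (chromosome 7, 12999114 to 13031035, plus strand). The groups did not overlap, and the log2 difference of -0.45 (SE 0.148) had a limma adjusted p of 0.0668. With the length and GC trend removed it was -0.12 (adjusted p = 0.397). Trim24, a chromatin reader that also targets p53, was at 3.62, 3.16 and 4.30 FPKM in Npm1_KO and 3.76, 2.50 and 2.33 FPKM in WT. Trim33, which acts on Smad4, was at 3.36, 3.20 and 5.31 FPKM in Npm1_KO and 4.90, 2.45 and 3.04 FPKM in WT. Both overlapped between the groups (log2 differences 0.29 and 0.16). Trim66 stayed at or under 0.160 FPKM.

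The NHL-repeat class had 3 tested of 4 members and none was called. Trim32, mutated in a human limb-girdle muscular dystrophy, was at 8.84, 11.2 and 10.3 FPKM in Npm1_KO and at 15.1, 13.0 and 15.9 FPKM in WT. Its groups did not overlap, and the log2 difference of -0.50 (SE 0.149, limma adjusted p = 0.0507) lay next to the threshold. It changed least of the 10 lower members without overlap when the trend was removed, to -0.41 (adjusted p = 0.0999). Trim3, best known from neurons, was at 12.2, 12.6 and 14.0 FPKM in Npm1_KO and 15.1, 12.9 and 15.2 FPKM in WT, with overlap. Trim2, another neuronal member, was near 1 FPKM in both groups. Trim71, a member known from embryonic stem cells, was too low to test, at 0.317, 0.395 and 0.548 FPKM in Npm1_KO and 0.858, 0.882 and 0.653 FPKM in WT.

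The Trim5-like genes lie in a cluster on chromosome 7 and are known as antiviral restriction and signalling genes; 4 of its 10 members were tested and none was called. Their median log2 difference was 0.21 as deposited and -0.11 with the length and GC trend removed. Trim12c was at 2.47, 2.20 and 2.86 FPKM in Npm1_KO and at 2.10, 0.636 and 1.53 FPKM in WT. It had the largest positive difference of the tested members, 0.58 on the log2(FPKM + 1) scale (SE 0.227, limma adjusted p = 0.108), and WT replicate 2 was its lowest library. Leaving out WT replicate 1 brought it to 0.78 (adjusted p = 0.0497), and leaving out WT replicate 2 to 0.32 (adjusted p = 0.269). Trim30a, a brake on NF-kB signalling in mouse macrophages, was at 3.86, 4.26 and 4.55 FPKM in Npm1_KO and 5.12, 2.06 and 3.56 FPKM in WT. Trim30d was at 1.87, 2.23 and 2.35 FPKM in Npm1_KO and 2.86, 1.06 and 1.75 FPKM in WT. For Trim30a, Trim30d and Trim34a the WT libraries spread on both sides of the Npm1_KO ones, with WT replicate 1 highest and WT replicate 2 lowest. Their log2 differences of 0.24, 0.17 and 0.09 turned negative when the trend was removed.

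**Figure D4:**
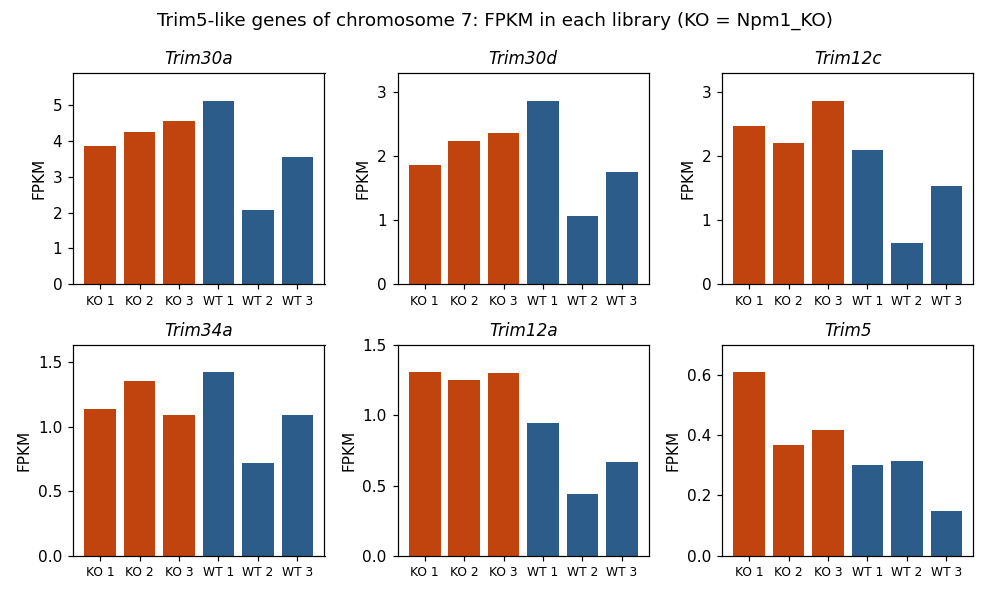
Level in FPKM of 6 genes of the Trim5-like cluster in each library, Npm1_KO libraries in orange at the left and WT libraries in blue at the right, each panel with its own axis from 0. In Trim30a, Trim30d, Trim12c and Trim34a the WT libraries differ more among themselves than the Npm1_KO libraries do, as in Trim30a (5.12, 2.06 and 3.56 FPKM in WT).

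Below the filter, 3 cluster members had groups that did not overlap, Trim12a and Trim5 higher and Trim6 lower in Npm1_KO. Trim12a was at 1.31, 1.26 and 1.30 FPKM in Npm1_KO and at 0.948, 0.441 and 0.671 FPKM in WT. Its mean over the libraries, 0.987 FPKM, lay just under the filter. Without the filter its log2 difference was 0.45 (limma adjusted p = 0.179). Trim5 was at 0.608, 0.369 and 0.419 FPKM in Npm1_KO and 0.300, 0.314 and 0.150 FPKM in WT. Trim6 rested on 17 fragments in all, at 0.0224, 0 and 0.0109 FPKM in Npm1_KO and 0.0430, 0.0829 and 0.0377 FPKM in WT. None of the 3 was tested as deposited, and no share over all genes below the filter was computed.

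These genes are near copies, which limits how fragments can be assigned. The coding sequences of Trim12c and Trim5 were 96.6% identical, those of Trim30a and Trim30d 90.2%, and those of Trim34a and Trim34b 98.2% (GENCODE vM21). Of the 50-base words of its transcript, Trim34a shared 41.3% with Trim34b, and Trim12c shared 32.7% with other genes, 24.5% with Trim5. Trim5 shared 38.1% with other genes, while the shares of Trim30d (8.29%), Trim30a (6.53%) and Trim12a (4.46%) were smaller. The first 90 coding bases are shown to make the likeness visible, with capitals at the positions that differ between Trim12c and the other pair, and between the Trim30 genes.
Trim12c: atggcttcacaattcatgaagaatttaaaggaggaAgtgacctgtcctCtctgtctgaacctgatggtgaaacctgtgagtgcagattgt
Trim12a and Trim5: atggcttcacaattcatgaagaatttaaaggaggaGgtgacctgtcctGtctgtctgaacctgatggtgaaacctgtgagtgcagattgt
Trim30a: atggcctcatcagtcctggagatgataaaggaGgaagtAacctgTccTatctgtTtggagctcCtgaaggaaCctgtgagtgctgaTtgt
Trim30d: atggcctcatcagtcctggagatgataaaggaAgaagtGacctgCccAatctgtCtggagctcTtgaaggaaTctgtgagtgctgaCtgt
Trim12c differed from the identical pair at 2 positions of the 90, and Trim30a from Trim30d at 8. How the authors treated fragments matching several genes is not given in the sources used here, so the levels of Trim5, Trim12a, Trim12c, Trim30a, Trim30d and Trim34a are uncertain.

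Within each pair, Trim5 with Trim12c and Trim30a with Trim30d, the sequence before the start is also much alike, as the letters show. These 4 of the 10 cluster members are shown because they held the interferon-stimulated response element core. The sequences below end at the base before the RefSeq start (minus strand, GRCm38.p6: Trim5 at chr7:104288107-104288195, Trim12c at chr7:104353350-104353418, Trim30a at chr7:104465194-104465269 and Trim30d at chr7:104507850-104507930). Capitals mark the match to the interferon-stimulated response element core, read on the opposite strand.
Trim5: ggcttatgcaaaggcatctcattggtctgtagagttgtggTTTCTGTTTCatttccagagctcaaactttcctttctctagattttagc
Trim12c: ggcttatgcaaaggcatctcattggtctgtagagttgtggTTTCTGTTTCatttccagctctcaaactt
Trim30a: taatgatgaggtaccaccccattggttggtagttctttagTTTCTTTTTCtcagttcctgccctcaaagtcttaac
Trim30d: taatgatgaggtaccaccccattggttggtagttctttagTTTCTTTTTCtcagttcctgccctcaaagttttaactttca
Of all 32851 RefSeq windows 2.98% hold this motif in the 250 bases before the start, against 5 of the 67 windows of members: these 4 and Trim26. None of the 5 was called, and the signs of the tested ones were mixed.

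The 5 members with another named end (a transmembrane stretch, an ARF, a MATH or a filamin-type domain) were all tested and none was called; their median log2 difference of 0.42 became 0.06 with the trend removed. Trim13, a ligase of the endoplasmic reticulum membrane, was at 2.06, 2.03 and 1.97 FPKM in Npm1_KO and 1.53, 1.34 and 0.746 FPKM in WT. Of the 50-base words of Trim13, 14.5% also occur in Gm9359, so its level is uncertain too. Trim23, which carries an ARF domain, was at 2.01, 1.87 and 2.51 FPKM in Npm1_KO and 1.8, 0.959 and 1.09 FPKM in WT. Both had a log2 difference of 0.47 without overlap (limma adjusted p = 0.0953 for Trim13 and 0.105 for Trim23), and both have transcripts low in GC, 42.2% and 37.4%. Trim59, also membrane-bound, was at 15.1, 15.7 and 16.4 FPKM in Npm1_KO, level across replicates, and at 15.9, 11 and 8.63 FPKM in WT. Leaving out WT replicate 1 brought Trim23 to 0.62 (adjusted p = 0.0467) and Trim59 to 0.64 (adjusted p = 0.0351), with Trim12c the only members called higher in any fit that left out a library from the deposited values. Trim37, which limits centriole assembly, and Trim45 overlapped between the groups.

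Of the 10 members listed here with no recognised or no classified end, 4 were tested and none was called. Trim8, a partner of the cytokine-signalling inhibitor Socs1, was at 52.5, 51.7 and 56.8 FPKM in Npm1_KO and 47.4, 60.6 and 49.3 FPKM in WT. Its log2 difference was 0.04 as deposited and 0.44 with the trend removed (limma adjusted p = 0.0704), the largest shift among the 4 most abundant members. Trim56, an antiviral RNA-binding member, was at 1.77, 2.32 and 2.97 FPKM in Npm1_KO and 4.46, 2.61 and 3.26 FPKM in WT; the difference was -0.40 as deposited and 0.12 with the trend removed. Trim44, which has no RING, and Trim29 overlapped between the groups.

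The members described in antiviral signalling cut across these classes. Of 15 listed, 13 were tested, 2 fell (Trim25 and Trim65), none rose, and the median log2 difference was -0.10, the same as that of the family. That is 15.4% of the tested antiviral members, against 14.2% of all tested genes called and 8.30% called lower. Both members that fell act on RNA sensors, but whether their fall relates to that role was not tested. Of the 13 tested antiviral members, 7 had a negative and 6 a positive log2 difference. The sensors and adaptors themselves are listed with the partners.

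The filter went by FPKM and not by fragment number, so a long untested member can hold more fragments than a short tested one: Trim71 had 608 fragments in all and Trim7 had 604, against 288 for the tested Trim13. Trim62 was at 0.753, 0.712 and 0.733 FPKM in Npm1_KO and 0.977, 1.26 and 1.04 FPKM in WT, and Trim7 stayed between 0.515 and 1.02 FPKM. Apart from Trim12a, Trim62, Trim7, Trim36, Trim71 and Trim5, every untested member stayed at or under 0.366 FPKM in every library. Among them was Trim38, an interferon-related member with 3 fragments in all. The muscle members Trim54, Trim55 and Trim63 and the neuronal Trim9 and Trim67 had no fragment in any library. No tested member passed the filter through 1 group alone.

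Partner genes of the family were described from lists of their roles, by count and median, to be read against the 8.30% lower and 5.91% higher of all tested genes. Of 9 TRIM genes with other symbols, 3 were tested and Mid1 fell. Mid1 is the X-linked COS-box ligase mutated in human Opitz syndrome, and it was at 2.60, 1.81 and 3.76 FPKM in Npm1_KO and 7.54, 5.24 and 5.08 FPKM in WT (log2 difference -0.92, SE 0.217, limma adjusted p = 0.0265). Its groups did not overlap, as in 19.6% of all tested genes in the lower direction. Pml, the organiser of nuclear bodies, was at -0.35 (adjusted p = 0.145) and Mid2 at 0.02.

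Of 12 E2 enzymes that work with RING ligases, 11 were tested, 1 rose and none fell, with a median log2 difference of 0.26 that became -0.02 with the trend removed. The E2 that rose was Ube2n, which builds non-degradative ubiquitin chains in sensor signalling and averaged 26.5 ± 2.15 FPKM in Npm1_KO and 16.7 ± 1.71 FPKM in WT (SD, n = 3 each; log2 difference 0.64, limma adjusted p = 0.0242). Its cofactor Ube2v2 was at 0.50 (adjusted p = 0.0675; 1.01 with limma-voom, adjusted p = 0.0277) and Ube2e1 at 0.38 (adjusted p = 0.0954).

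Of the 16 genes of the Trim28 silencing complex, all tested, 12 were not called, 2 fell and 2 rose. The chromatin remodeller Chd4 averaged 30.1 ± 6.08 FPKM in Npm1_KO and 56.2 ± 6.31 FPKM in WT (SD, n = 3 each; log2 difference -0.89, limma adjusted p = 0.0171). Its relative Chd3, named after its values were seen, was at -0.65 (adjusted p = 0.0429). With the length and GC trend removed Chd3 was at 0.03 (adjusted p = 0.875). The deacetylase Hdac2 averaged 25.2 ± 0.451 FPKM in Npm1_KO and 15.9 ± 1.8 FPKM in WT (SD, n = 3 each; log2 difference 0.64, limma adjusted p = 0.0221), and the heterochromatin protein Cbx3 was at 0.67 (adjusted p = 0.0291). Setdb1, the histone methyltransferase that Trim28 recruits, was at -0.27 (adjusted p = 0.28).

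Of 16 RNA and DNA sensing partners 1 fell and none rose, with a median log2 difference of -0.12. Traf3, the adaptor ligase between the sensors and the interferon kinases, was at 5.90, 6.06 and 8.02 FPKM in Npm1_KO and 18.0, 10.5 and 13.8 FPKM in WT (log2 difference -0.96, SE 0.200, limma adjusted p = 0.0198). The sensors that Trim25 and Trim65 act on overlapped between the groups: Ddx58 (RIG-I) was at -0.14 (adjusted p = 0.534) and Ifih1 (MDA5) at 0.31 (adjusted p = 0.41). Zc3hav1, a Trim25 partner, was at -0.44 (adjusted p = 0.133) and Tmem173 (STING) at -0.29 (adjusted p = 0.215). None of the 5 ISG15 conjugation genes was called from log2(FPKM + 1). Herc6, the mouse ISG15 ligase, was at 0.63 (adjusted p = 0.0507), and limma-voom on the recovered fragments called it at 1.24 (adjusted p = 0.0311). Ube2l6 was at 0.41 (adjusted p = 0.143) and Usp18 at -0.50 (adjusted p = 0.238).

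Of 6 SMAD and p53 genes that members act on, Smad3 fell, averaging 10.3 ± 1.04 FPKM in Npm1_KO and 18.4 ± 0.842 FPKM in WT (SD, n = 3 each; log2 difference -0.79, SE 0.138, limma adjusted p = 0.0148). Smad4 was at -0.29 (adjusted p = 0.154) and Mdm2 at 0.31 (adjusted p = 0.348). With the length and GC trend removed, none of the genes in these 6 partner lists was called. Mid1, Ube2n, Chd4, Hdac2, Cbx3, Traf3 and Smad3 each lost the call when Npm1_KO replicate 1, Npm1_KO replicate 2 or WT replicate 3 was left out, with limma adjusted p-values from 0.0587 to 0.125.

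The 4 TRIM calls also depended on single libraries. Without Npm1_KO replicate 1, Npm1_KO replicate 2 or WT replicate 3, none of the 33 members was called, and over all genes 88, 209 and 7 were. Without Npm1_KO replicate 3 the calls were 6 members, all lower, of 2805 genes (24.9% of those tested). Without WT replicate 1, 1369 genes (12.1%) were called, among them Trim46 and Trim35 lower and Trim12c, Trim23 and Trim59 higher. Trim25, Trim65 and Trim11 lost their call in that fit. Without WT replicate 2, 890 genes (7.89%) were called, among them Trim46, Trim25 and Trim11, all lower, and Trim65 was not called. Trim46 thus kept its call in 3 of the 6 fits, Trim25 and Trim11 in 2 and Trim65 in 1. Trim46 had limma adjusted p-values of 0.0229 to 0.112 over the 6 fits that left out a library, Trim25 0.0123 to 0.131, Trim65 0.0206 to 0.153 and Trim11 0.0285 to 0.15. Their log2 differences stayed negative in each of these fits.

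**Figure D5:**
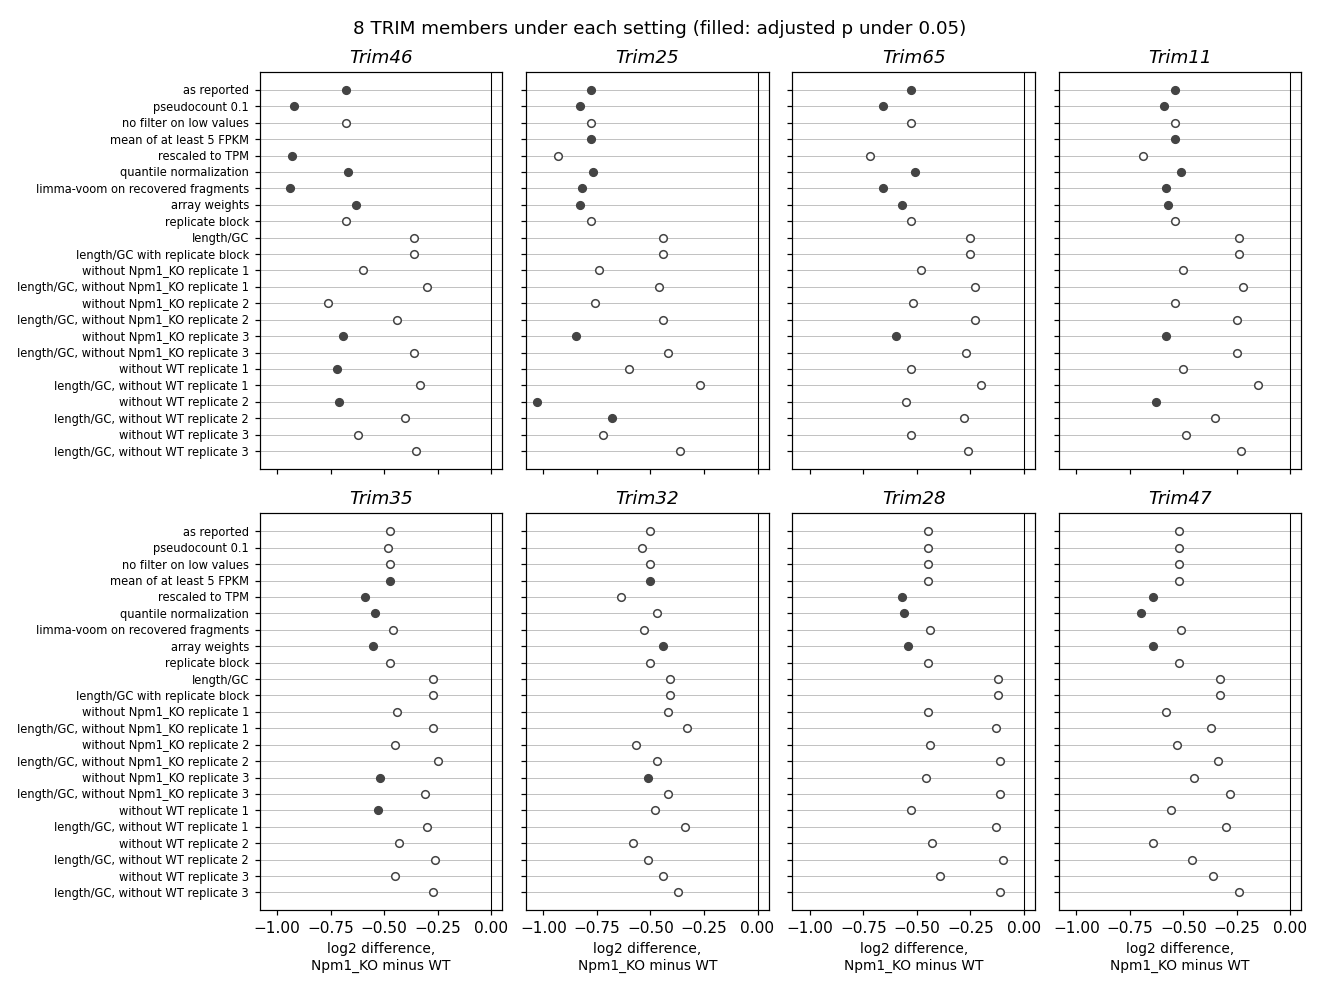
Log2 difference, Npm1_KO minus WT, of the 4 called TRIM members and of Trim35, Trim32, Trim28 and Trim47, under each way of processing and with each library left out; filled points had a limma adjusted p under 0.05. All points lie below 0, and taking the length and GC trend out of all 6 libraries moves each of the 8 members towards 0, as for Trim28 at -0.12 against -0.45.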

How the data were processed

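Poly-A RNA of 3 Npm1_KO and 3 WT libraries was analysed from 1 table of FPKM values deposited by the authors, with 1 column per library and no pooling. The submitters' processing notes name CASAVA 1.8, HISAT2 2.0.5, featureCounts 1.5.0-p3, DESeq2 1.20.0 and the build GRCm38 (mm10), without their roles. FPKM times gene length gave whole fragments for 100% of values (tolerance 0.001 of a fragment).

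The test was limma 3.58.1 (R 4.3.3; two-sided, with a mean trend) on log2(FPKM + 1), comparing the groups in the 11287 genes that averaged 1 FPKM or more, and p-values were adjusted by Benjamini-Hochberg over all of these. This scale understates the change of low genes. Fold changes are Npm1_KO minus WT. In the corrected fit, a surface over GC content and log2 length of the longest GENCODE vM21 transcript (mgcv 1.9.3) was subtracted in each library. The procedure was tested on simulated data that held no length or GC trend between libraries. That simulation therefore cannot show how the correction treats such a trend.

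All 68 members had their identifier in GENCODE vM21 and 66 the same coordinates. Promoters were RefSeq windows on GRCm38.p6, found for 53 members. Coding sequences came from GENCODE vM21.

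The members, the lists and the tests were chosen with earlier results of these data known. The rule for named genes took Npm1, every called member, the 5 members with the highest mean, the 2 tested members of each class and the 3 of each partner list with the smallest p. The other members and Chd3 were named after their values were seen. Alternatives were a pseudocount of 0.1, no filter and a filter of 5 FPKM, TPM, quantile normalization, limma-voom on recovered fragments, array weights, a replicate block, the length and GC correction, and leaving out each library.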

Additional observations from a re-analysis of the deposited data

How the results depend on the processing

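A pseudocount of 0.1 and limma-voom on the recovered fragments gave the same 4 lower members as the main fit. They called 1559 and 1591 genes, against 1604 in the main fit. Limma-voom, which adds no 1 FPKM, put Trim12c at 0.98 (adjusted p = 0.0916) and Trim23 at 0.78 (adjusted p = 0.0737), and called Herc6 (1.24) and Ube2v2 (1.01), while quantile normalization called Herc6 at 0.60 (adjusted p = 0.0452). With no filter on low values limma called 0 genes and 0 members, with 15 members at an unadjusted p under 0.05 of 52 tested. A filter of 5 FPKM left 14 members, of which Trim11, Trim25, Trim32 and Trim35 were called, with a median log2 difference of -0.26 over members. Over all genes that fit called 1546 of 7111, or 21.7%. Rescaling to TPM called 961 genes (8.51%) and 4 members (Trim28, Trim35, Trim46 and Trim47). The median was then -0.21 over members and -0.08 over all genes, with Trim8 at -0.07 and Mid2 at -0.06. Quantile normalization called 1804 genes (16.0%) and 7 of 33 members, all lower, and put Trim8 at -0.04. Array weights called 5454 genes (48.3%) and 15 of 33 members (10 lower, 5 higher), with a member median of 0.01. Trim37 was then at 0.02, Trim14 at 0.12 and Mid2 at -0.12. The weights ran from 0.312 for Npm1_KO replicate 3 to 6.81 for Npm1_KO replicate 2, so the latter library counted most in that fit. The length and GC correction called 340 genes and 0 members, with a member median of 0.03 and Npm1 at -0.74. It turned the sign of Trim41 (0.13), Trim37 (0.03), Trim39 (0.19), Trim26 (0.11), Trim56 (0.12), Trim3 (0.07), Pml (0.04), Trim59 (-0.08), Trim34a (-0.17), Trim30a (-0.05), Trim30d (-0.23), Mid2 (-0.01) and Ube2v2 (-0.02). Chd3 also changed sign under the correction, to 0.03. The cause of these shifts was not tested.

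A replicate block, using the shared replicate numbers of the labels, called 822 genes and 0 members, and together with the length and GC correction 9 genes and 0 members, with the same member median of 0.03 and the same signs as the correction alone. The deviations of same-numbered libraries correlated at -0.185, 0.268 and -0.368. The signs were mixed and each value rests on 1 pair of libraries, so they cannot decide whether the numbers pair the samples.

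Leaving out each library in turn, with and without the correction, called 4 to 2805 genes and 0 to 6 members, with member medians of -0.11 to 0.08 and Npm1 at -0.84 to -0.18. The log2 differences of members and partners that changed sign in some of these fits ranged as follows. Trim41 ran from -0.28 to 0.17, Trim37 from -0.21 to 0.20, Trim27 from -0.37 to 0.06 and Trim13 from -0.09 to 0.58. Trim39 ran from -0.18 to 0.33, Trim26 from -0.17 to 0.15, Trim8 from -0.03 to 0.54 and Trim44 from -0.32 to 0.13. Trim59 ran from -0.23 to 0.64, Trim2 from -0.06 to 0.32, Trim33 from -0.02 to 0.38 and Trim14 from -0.21 to 0.03. Trim56 ran from -0.54 to 0.22, Trim68 from -0.08 to 0.12, Trim34a from -0.31 to 0.21 and Trim30a from -0.27 to 0.48. Trim30d ran from -0.40 to 0.40, Trim3 from -0.22 to 0.17, Pml from -0.44 to 0.14 and Mid2 from -0.08 to 0.14. Ube2v2 ran from -0.18 to 0.63 and Ube2e1 from -0.02 to 0.44. With the correction and without WT replicate 2, Trim25 was called lower and Trim45 and Trim8 higher, of 530 genes. A member with no fragment here may still be expressed below this depth.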
